A study of Mus musculus with 4 samples.

Results

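The genes described here encode the receptors for glutamate, the main excitatory transmitter of the brain, and the transmembrane proteins that accompany one class of them, measured in mouse cerebellum after exposure to an insecticide. They were taken by gene symbol from a list of 30 covering AMPA, NMDA, kainate, delta and metabotropic receptors and AMPA receptor auxiliary subunits. The platform annotation named a probe set, the set of array probes that reports on 1 transcript, for 28 of the 30, out of 19505 gene symbols on the array. Grin1 and Grm8 were not analysed here. The clothianidin group (replicates 6 and 7) held 2 cerebellum samples from C57BL/6N males, 10 weeks old, given 50 mg per kg per day of clothianidin, a neonicotinoid insecticide that activates insect nicotinic acetylcholine receptors, by mouth for 4 days. The vehicle group (replicates 7 and 9) held 2 cerebellum samples of males of the same strain and age that received vehicle for the same 4 days. The mice ran on a rotarod, a turning rod that tests motor coordination, on those days in both groups, and the brain was taken straight after the test.

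Ionotropic glutamate receptors are channels of several subunits. AMPA receptors carry the fast current, NMDA receptors admit calcium when the cell is already depolarised, and kainate receptors tune release and excitability. Metabotropic receptors work through G proteins, with one group releasing calcium from stores and the others lowering cyclic AMP. In the cerebellum mossy fibres excite granule cells through AMPA and NMDA receptors, and the parallel fibres of granule cells excite Purkinje cells mainly through AMPA receptors, whose removal at that synapse underlies long-term depression and motor learning.

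Values are log2 probe set summaries, so a difference of 1 is a doubling on the log2 scale. Different probes answer with different strength, so differences between groups were taken within a gene. Where a level is set against the array median or averaged over a list, it describes probe signal and not the amount of transcript. The array medians were 6.49 and 6.5 with clothianidin and 6.5 and 6.54 with vehicle. Of the defining markers of the labelled tissue, the granule cell receptor gene Gabra6 read 17.05 and 17.40 with clothianidin and 17.41 and 17.09 with vehicle. Levels of different probe sets cannot be set against each other and signal over background is unknown, so the check of the tissue goes no further. Nothing in the labels states that the samples of a group came from different animals, so each p-value reflects the variation among these arrays and that may be technical. In whole tissue, fewer cells of a type and less RNA per cell cannot be told apart.

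The comparison asked whether glutamate receptor transcripts differ after short exposure to clothianidin. None of the 28 genes passed limma's adjusted p of 0.05, and 0 of all 22206 probe sets did (0%), with an adjusted p of 0.997 for each of the 28. An unadjusted limma p under 0.05 was found for 3 receptor genes, Grid1 and Grin3b on the higher side and Grm5 on the lower, against 4.23% of all probe sets, of which 2.3% were higher and 1.93% lower. Groups did not overlap for 10 of the 28 genes (35.7%), against 30.6% of all probe sets, a share near the background. Of the 10, 7 were higher with clothianidin (15.1% of all probe sets were) and 3 lower (15.5%). At least 1.5-fold apart without overlap were 4 of the 28 (14.3%), against 7.61% of all probe sets. On the higher side these were Grid1, Grin3b and Cacng5, where 4.04% of all probe sets qualified, and on the lower side Grm5, where 3.57% did. The difference exceeded the gap within both groups for 7 of the 28 genes, against 19.8% of all probe sets. Over the 28 genes 19 lay above 0, where 48.1% of all probe sets did, and 9 below, with a median log2 difference of 0.14, while the median over all probe sets was -0.01. The standard error of a log2 difference ran from 0.27 to 0.47 among the receptor genes, with a median of 0.30.

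**Figure D1:**
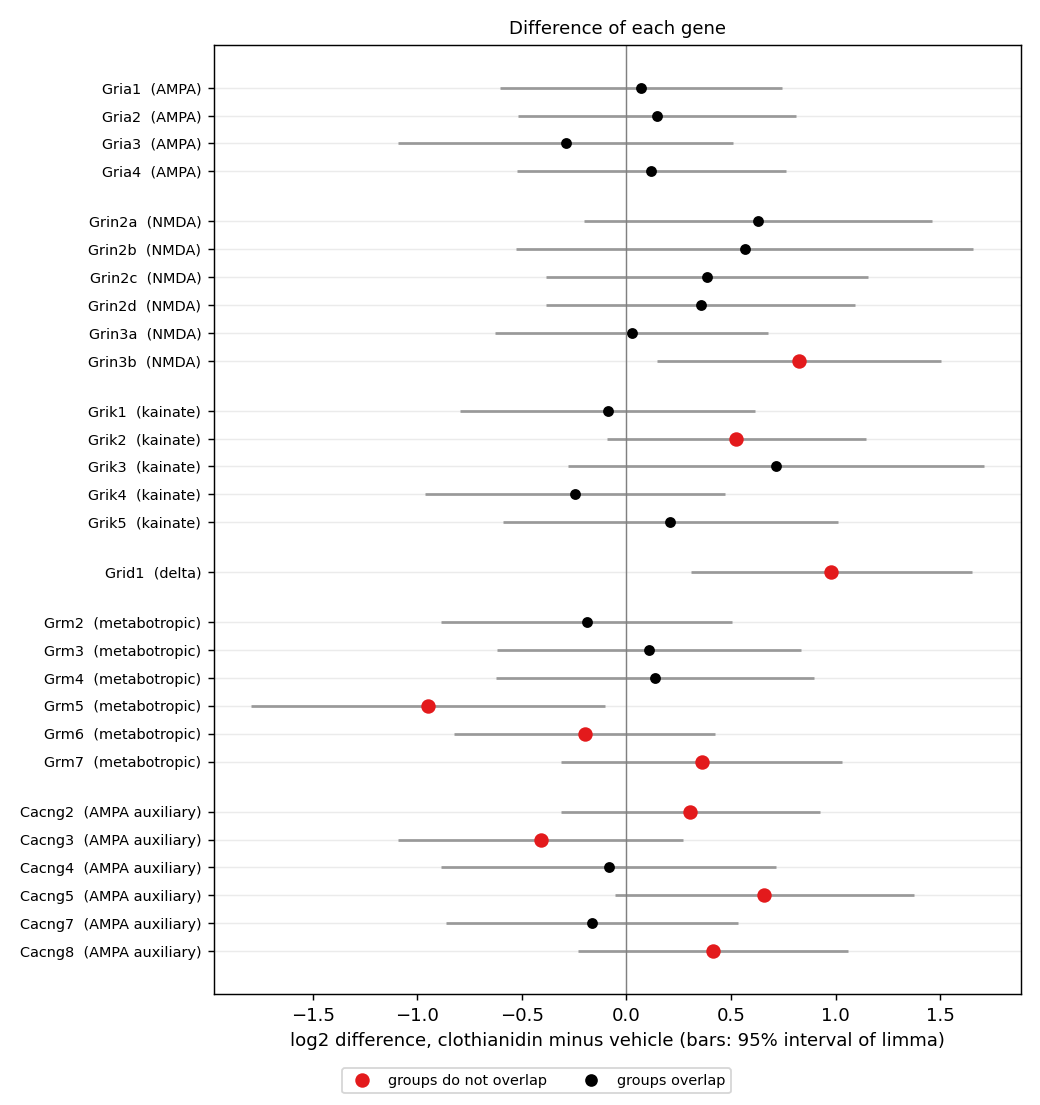
Log2 difference between clothianidin and vehicle (x axis) for each of the 28 genes (y axis, by subfamily), as points with the 95% interval of limma (n = 2 arrays per group). Red points mark the 10 genes whose groups do not overlap. Only the intervals of Grid1, Grin3b and Grm5 leave out 0.

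AMPA receptor subunits form the channel of the parallel fibre and mossy fibre synapses. Gria2, whose edited subunit keeps calcium out of the channel, read 13.39 and 12.94 with clothianidin and 13.03 and 13.01 with vehicle. Its log2 difference was 0.145 with a standard error of 0.29 and a 95% interval of -0.52 to 0.81 (limma unadjusted p = 0.628). Gria4, which pairs with Gria2 in granule cells, read 14.89 and 14.57 with clothianidin and 14.66 and 14.56 with vehicle. The difference for Gria4 was 0.12 with a standard error of 0.28 and an interval of -0.52 to 0.76 (limma unadjusted p = 0.677). In both genes clothianidin replicate 6 stood above the other arrays, and the groups overlapped. Gria3, prominent in Purkinje cells, read 13.60 and 12.75 with clothianidin and 13.33 and 13.60 with vehicle. Here the low array was clothianidin replicate 7, and the difference of -0.29 had a standard error of 0.35 and an interval of -1.09 to 0.51 (limma unadjusted p = 0.427). Gria1, which Bergmann glia and Purkinje cells carry, read 16.72 and 16.24 with clothianidin and 16.48 and 16.34 with vehicle. Its difference was 0.07, and its vehicle values lay between those of the clothianidin arrays. Of the 4 AMPA genes 3 lay above 0, but without clothianidin replicate 6 all 4 lay below 0, with a median of -0.125 where it was 0.095 with all arrays.

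AMPA receptor auxiliary subunits escort the channel to the membrane and slow its closing. Cacng2 encodes stargazin, which brings AMPA receptors to the surface of granule cells and whose loss makes the stargazer mouse ataxic. It read 15.20 and 15.37 with clothianidin and 14.96 and 15.00 with vehicle, so both clothianidin arrays lay above both vehicle arrays. The difference was 0.305 with a standard error of 0.27 and an interval of -0.31 to 0.92 (limma unadjusted p = 0.289). Whichever array was left out, it stayed between 0.22 and 0.39. Cacng7, a relative found in Purkinje cells, read 15.72 and 16.00 with clothianidin and 16.28 and 15.77 with vehicle. Its difference was -0.165 with a standard error of 0.30 and an interval of -0.86 to 0.53 (limma unadjusted p = 0.6), and the groups overlapped.

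Cacng5, an auxiliary subunit of Bergmann glia, was among the 4 genes past 1.5-fold. It read 10.15 and 9.54 with clothianidin and 9.09 and 9.28 with vehicle. The lower clothianidin array stood only 0.26 above the higher vehicle array. The difference was 0.66 with a standard error of 0.31 and an interval of -0.05 to 1.37 (limma unadjusted p = 0.0656), and without clothianidin replicate 6 it was 0.355. Bergmann glia and astrocyte markers had 5 of 9 above 0 with a median of 0.025, and a mean level of 12.81 and 12.81 with clothianidin and 12.76 and 12.77 with vehicle. Cacng8 read 7.71 and 7.50 with clothianidin and 7.34 and 7.04 with vehicle, again without overlap, with a difference of 0.415 that was 0.265 without vehicle replicate 9. Cacng3, like Cacng8 best known from forebrain, read 10.28 and 10.14 with clothianidin and 10.87 and 10.37 with vehicle. Both clothianidin arrays were lower, the difference was -0.41, and without vehicle replicate 7 it was -0.16. Cacng4, a subunit also found in glia, read 11.70 and 10.81 with clothianidin and 11.38 and 11.30 with vehicle. The vehicle arrays of Cacng4 lay between the clothianidin arrays, with a difference of -0.085.

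The promoters of Cacng5 and Grin3b are shown because they are the pair among the 4 genes past 1.5-fold for which RefSeq promoters (build GRCm38.p6, 300 bases around a transcript start, 5′ to 3′ on the gene's strand) were at hand. The Cacng5 window is chr11:107915006-107915305 on the minus strand, and the Grin3b window is chr10:79970474-79970773 on the plus strand. Capitals mark matches, on both strands, to the GC box GGGCGG, the cyclic AMP response element TGACGTCA or the TATA motif TATAAA, whose matches did not overlap here.
Cacng5: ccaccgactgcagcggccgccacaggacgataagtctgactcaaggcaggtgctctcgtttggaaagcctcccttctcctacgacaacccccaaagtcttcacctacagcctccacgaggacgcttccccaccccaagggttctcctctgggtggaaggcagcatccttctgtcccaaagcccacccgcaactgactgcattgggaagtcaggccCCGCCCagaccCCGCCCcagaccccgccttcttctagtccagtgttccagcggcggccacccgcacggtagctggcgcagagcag
Grin3b: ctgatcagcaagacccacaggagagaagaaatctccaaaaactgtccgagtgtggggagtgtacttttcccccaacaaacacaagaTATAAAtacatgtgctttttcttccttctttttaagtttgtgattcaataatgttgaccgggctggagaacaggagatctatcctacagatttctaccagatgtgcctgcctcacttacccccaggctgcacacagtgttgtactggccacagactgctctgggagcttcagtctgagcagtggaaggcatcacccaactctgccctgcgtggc
The Cacng5 window held 2 GC boxes, and the Grin3b window held 1 TATA motif. Among all 32851 RefSeq promoters of this length, 35.7% hold a GC box, 1.79% the cyclic AMP response element and 13.6% the TATA motif. For the receptor genes 20 promoters of 18 genes were matched, of which 10 held a GC box, 0 the cyclic AMP response element and 1 the TATA motif. Both Grm7 windows overlap and hold the same GC box, which thus counts in each. A second Cacng5 start in the table held none of the motifs. These matches describe letters and say nothing of binding.

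NMDA receptor subunits all lay above 0, 6 of 6 measured, with a median log2 difference of 0.475. Grin2a, the main partner subunit of mature granule cells, read 11.41 and 10.63 with clothianidin and 10.10 and 10.68 with vehicle. Its difference was 0.63 with a standard error of 0.36 and an interval of -0.20 to 1.46 (limma unadjusted p = 0.118). Vehicle replicate 9 lay between the clothianidin arrays, so the groups overlapped, and the difference was 0.24 without clothianidin replicate 6 and 0.34 without vehicle replicate 7. Grin2c, which replaces the juvenile subunit as granule cells mature, read 10.02 and 9.22 with clothianidin and 9.28 and 9.19 with vehicle. The single high array was clothianidin replicate 6, without which the difference of 0.385 became -0.015. With all arrays the standard error for Grin2c was 0.33 and the interval -0.38 to 1.15 (limma unadjusted p = 0.281). Grin2d, a subunit of cerebellar interneurons, read 7.18 and 6.51 with clothianidin and 6.62 and 6.36 with vehicle. It showed the same layout, with a difference of 0.355 that was 0.02 without clothianidin replicate 6. The juvenile and forebrain subunit gene Grin2b read 6.26 and 5.75 with clothianidin and 4.70 and 6.18 with vehicle. Its vehicle arrays were 1.48 apart, the widest gap within a group among the 28 genes, and the difference of 0.565 turned to -0.175 without vehicle replicate 7.

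Grin3a and Grin3b encode glycine-binding subunits that make NMDA receptors less permeable to calcium. Grin3a read 8.11 and 7.88 with clothianidin and 8.13 and 7.81 with vehicle, a difference of 0.025. Grin3b read 4.64 and 5.07 with clothianidin and 4.17 and 3.89 with vehicle. Both clothianidin arrays lay above both vehicle arrays, and the difference was larger than the gap within either group. It was 0.825 with a standard error of 0.29 and an interval of 0.15 to 1.504 (limma unadjusted p = 0.0232, adjusted p = 0.997), and 0.61 to 1.04 when 1 array was left out. Grin3b and Grin2b were the 2 genes below the array median on every array, where signal over background is unknown. Without clothianidin replicate 6 the NMDA median was 0.13, with 4 of 6 genes above 0.

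Kainate receptors combine low-affinity subunits, which form channels alone, with high-affinity subunits, which need a partner. Grik2, the low-affinity subunit of granule cells, read 14.09 and 13.93 with clothianidin and 13.46 and 13.51 with vehicle. The arrays of each group lay close together, and the groups did not overlap. The difference was 0.525 with a standard error of 0.27 and an interval of -0.09 to 1.14 (limma unadjusted p = 0.086). It ran from 0.445 to 0.605 when each array was left out in turn. Grik3 read 10.31 and 9.09 with clothianidin and 8.69 and 9.28 with vehicle, a difference of 0.715 that was 0.105 without clothianidin replicate 6 and 0.42 without vehicle replicate 7. Grik1, a low-affinity subunit of Purkinje cells, read 8.21 and 8.72 with clothianidin and 8.72 and 8.39 with vehicle. The difference of -0.09 had a standard error of 0.31 and an interval of -0.79 to 0.61 (limma unadjusted p = 0.776). Grik5, the high-affinity subunit of granule cells, read 10.19 and 9.30 with clothianidin and 9.56 and 9.51 with vehicle. Its vehicle values lay between the clothianidin ones, and the difference of 0.21 had a standard error of 0.35 and an interval of -0.59 to 1.01 (limma unadjusted p = 0.561). Grik4, the high-affinity subunit described in Purkinje cells, read 8.20 and 7.76 with clothianidin and 8.46 and 7.99 with vehicle. The groups overlapped, with a difference of -0.245, a standard error of 0.31 and an interval of -0.96 to 0.47 (limma unadjusted p = 0.452).

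Grid1 encodes a delta receptor, which binds secreted cerebellins and so bridges the synapse. It read 6.75 and 6.27 with clothianidin and 5.49 and 5.57 with vehicle. The lowest clothianidin array stood 0.7 above the highest vehicle array, the widest clear space between the groups among the 28 genes. The difference of 0.98, a ratio of 1.97, had a standard error of 0.29 and an interval of 0.31 to 1.65 (limma unadjusted p = 0.01, adjusted p = 0.997). It was 0.74 without clothianidin replicate 6 and 1.22 without clothianidin replicate 7. On 3 of the 4 arrays Grid1 lay below the array median.

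Metabotropic receptor genes went both ways, with 3 of 6 above 0 and a median of -0.04. Grm4, the receptor of parallel fibre terminals that restrains their release, read 13.94 and 13.16 with clothianidin and 13.40 and 13.43 with vehicle. The vehicle arrays differed by 0.03 and lay between the clothianidin arrays, and the difference of 0.135 had a standard error of 0.33 and an interval of -0.62 to 0.89 (limma unadjusted p = 0.6925). Grm7, another presynaptic receptor of the same group, read 8.81 and 8.61 with clothianidin and 8.57 and 8.13 with vehicle. The groups were 0.04 apart at their nearest arrays, and the difference of 0.36 had a standard error of 0.29 and an interval of -0.31 to 1.03 (limma unadjusted p = 0.251). Without vehicle replicate 9 it was 0.14. Grm2, the receptor of Golgi cells, read 10.80 and 10.25 with clothianidin and 10.79 and 10.64 with vehicle, a difference of -0.19. Grm3, its relative in glia and neurons, read 10.99 and 10.88 with clothianidin and 11.16 and 10.49 with vehicle, a difference of 0.11. Grm6, known from retinal bipolar cells, read 6.99 and 6.90 with clothianidin and 7.24 and 7.05 with vehicle. Both clothianidin arrays of Grm6 lay lower, with a difference of -0.20.

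Grm5, a receptor that releases calcium from stores and sits on Golgi cells and forebrain neurons, had the lowest log2 difference of the 28 genes. It read 5.31 and 5.36 with clothianidin and 6.79 and 5.78 with vehicle. The groups did not overlap, but the vehicle arrays were 1.01 apart, more than the difference of -0.95. Its standard error was 0.37 and its interval -1.80 to -0.10 (limma unadjusted p = 0.0321, adjusted p = 0.997). Without vehicle replicate 7 the difference was -0.445, and without vehicle replicate 9 it was -1.455. Grm5 lay below the array median on 3 of the 4 arrays.

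Vehicle replicate 7 was also the highest array for 5 of 8 measured markers of forebrain and midbrain neurons, against 26.6% of all probe sets. Of 8 measured markers 7 lay below 0 with clothianidin, with a median of -0.32. The mean of the 8 was 6.36 and 6.36 with clothianidin and 6.94 and 6.54 with vehicle. The 5 highest on vehicle replicate 7 were Tbr1, Fezf2, Drd1, Drd2 and Tcf7l2. All but Tcf7l2 lay below the array median on every array, as did Emx1, and signal over background is unknown there. Tcf7l2, a thalamic and midbrain transcription factor gene, read 9.94 and 9.11 with clothianidin and 11.70 and 9.69 with vehicle. Its difference of -1.17 was the lowest of the 8, and -0.165 without vehicle replicate 7, while Neurod6 was at 0.03. The layout was not particular to these markers, since 5 of 9 oligodendrocyte markers were also highest on vehicle replicate 7. Of the 4 receptor genes described above as known from forebrain, Grm5 and Cacng3 were also highest on vehicle replicate 7, while Grin2b was lowest there and Cacng8 was highest on clothianidin replicate 6. The part of this marker signal in the Grm5 and Cacng3 differences was not tested.

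**Figure D2:**
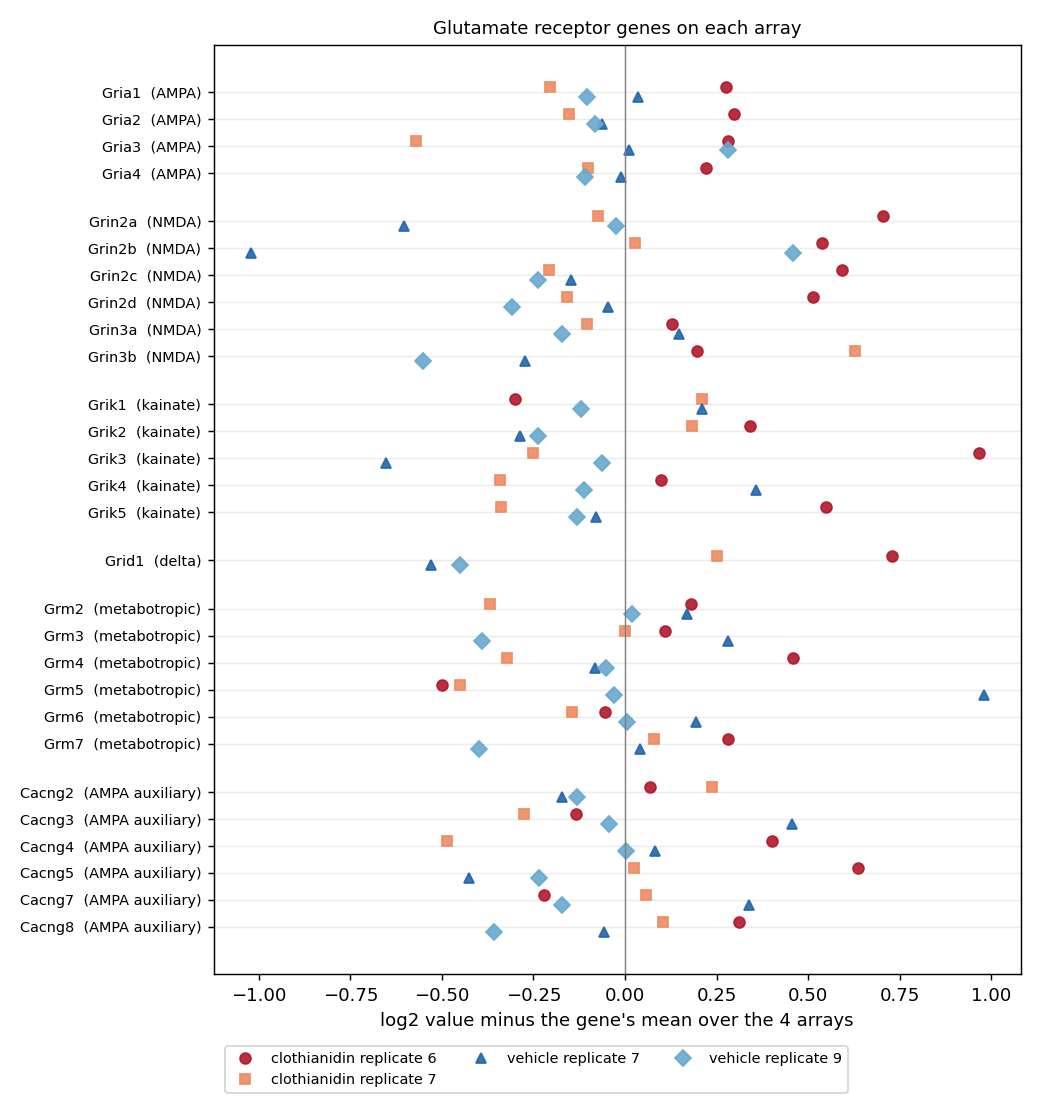
Log2 value of each gene on each array minus its mean over the 4 arrays (x axis), for 28 genes by subfamily (y axis). Red circles and orange squares are clothianidin replicates 6 and 7, blue triangles and pale diamonds are vehicle replicates 7 and 9. Clothianidin replicate 6 is the rightmost point for 17 genes, and vehicle replicate 7 stands far right for Grm5.

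One array stood out across the receptor genes. Clothianidin replicate 6 was the highest array for 17 of the 28 (60.7%), against 26.2% of all probe sets. Clothianidin replicate 7 was the highest for 2 (21.1% of all probe sets), vehicle replicate 7 for 7 (26.6%) and vehicle replicate 9 for 0 (24.5%), and Gria3 and Grik1 had a tie at the top. The median deviation of the 28 genes from their own means was 0.28 and -0.12 on the clothianidin arrays and -0.03 and -0.12 on the vehicle arrays. Clothianidin replicate 7 thus lay beside vehicle replicate 9 in this median. It was the lowest array for 10 of the 28 genes (5310 of all 22206 probe sets), against 7 and 8 for vehicle replicates 7 and 9. The gap between the clothianidin arrays was wider than between the vehicle arrays for 18 of the 28 genes. The median gap was 0.465 within clothianidin and 0.265 within vehicle for these genes, where it was 0.31 and 0.32 over all probe sets. Brighter probe sets were higher on clothianidin replicate 6 in general, since it was the highest array for 35.3% of those at or above the median level, which include 24 of the 28 genes. After quantile normalization it was the highest array for 16 of the 28 genes, against 27.2% of all probe sets and 29.0% of the brighter ones, and the median difference of the 28 genes was 0.06. Without clothianidin replicate 6, on the values as deposited, the median was -0.02 and 13 of the 28 lay above 0.

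Among subunits typical of granule cells all 8 measured (Grin2a, Grin2c, Gria2, Gria4, Grik2, Grik5, Grm4 and Cacng2) lay above 0, with a median of 0.26 and a range of 0.12 to 0.63. Clothianidin replicate 6 was the highest array for 7 of the 8, the exception being Cacng2. That array was the highest for 26.2% of all probe sets and 35.3% of those at or above the median level. Without that array 3 of the 8 lay above 0, Grin2a, Grik2 and Cacng2, and the median was -0.03. Their median deviation was 0.40 and -0.13 with clothianidin and -0.12 and -0.12 with vehicle. Markers of granule cells that are not on the receptor list deviated by 0.50 and -0.13 with clothianidin and -0.03 and -0.25 with vehicle. Of the 11 measured, 7 were highest on clothianidin replicate 6, to be read against the same shares. The mean level of these 11 markers was 15.40 and 14.90 with clothianidin and 14.94 and 14.73 with vehicle. The part of granule cell content in the receptor differences was not tested.

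Subunits listed for Purkinje cells (Gria2, Gria3, Grik1, Grik4, Grm7, Cacng2 and Cacng7) were mixed, with 3 of 7 above 0 and a median of -0.09, which was 0.09 without vehicle replicate 7 and 0.135 without clothianidin replicate 7. Gria2 and Cacng2 belong to both lists. The median deviation of these 7 was 0.10 and 0.06 with clothianidin and 0.04 and -0.12 with vehicle. Purkinje cell markers not on the receptor list had 7 of 10 above 0 and a median difference of 0.16, with a mean level of 15.20 and 15.34 with clothianidin and 15.06 and 15.02 with vehicle. Calb1, the calcium-binding protein of Purkinje cells, read 16.51 and 16.30 with clothianidin and 15.74 and 15.75 with vehicle. Calb1 had the smallest unadjusted limma p of the 10 markers and does not stand for the list. Its difference was 0.66, beside 0.68 for Pcp2 and 0.675 for Pcp4. Of the 10 markers 5 were higher without overlap (15.1% of all probe sets were) and 0 lower (15.5%). These 3 genes were also past 1.5-fold, where 4.04% of all probe sets qualified on the higher side. The 3 below 0 were Foxp2 at -0.225, Slc1a6 at -0.06 and Aldoc at -0.005. Whether the markers and the receptor subunits of Purkinje cells differ in response was not tested. Markers of molecular layer and Golgi interneurons had 7 of 8 above 0 with a median of 0.08, but 3 of 8 with a median of -0.18 without clothianidin replicate 6 and 4 of 8 with a median of -0.02 after quantile normalization, and unipolar brush cell markers 4 of 4 with a median of 0.21. The number above 0 was 0 of 9 for oligodendrocyte markers, 2 of 6 for microglia, 2 of 6 for endothelial cells and 4 of 7 for choroid plexus, with medians of -0.285, -0.12, -0.09 and 0.115. Otx2 was counted in both the unipolar brush cell and the choroid plexus list. The choroid plexus gene Ttr read 6.38 and 13.96 with clothianidin and 5.70 and 5.67 with vehicle.

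**Figure D3:**
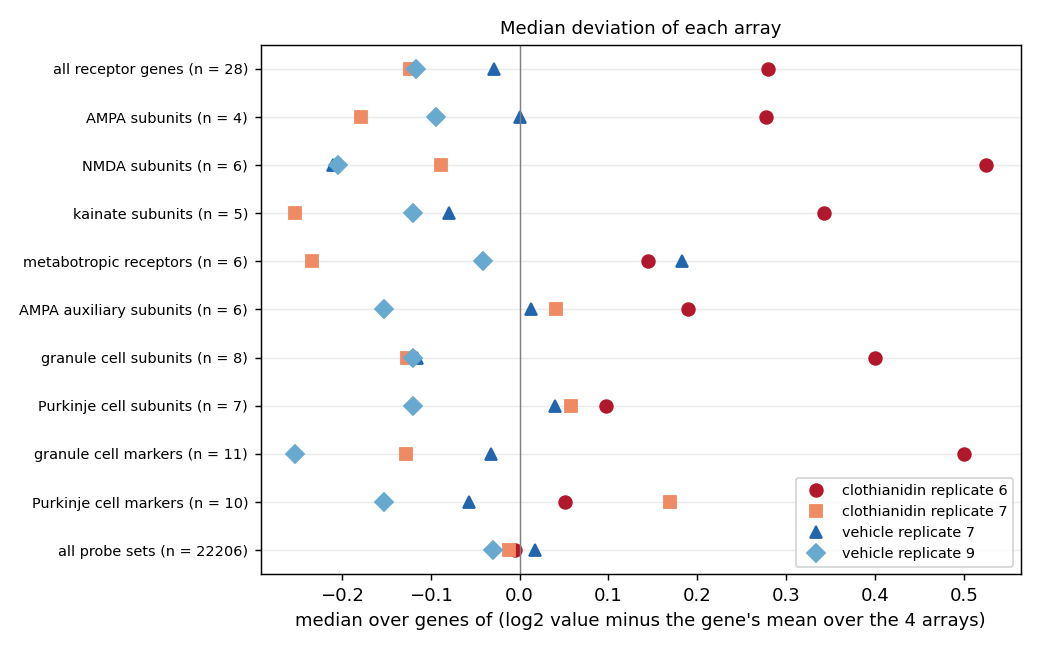
Median over genes of the log2 value minus the gene's mean over the 4 arrays (x axis), for groups of genes with their number (y axis). Symbols are the 4 arrays. Clothianidin replicate 6 lies apart from the other 3 arrays at 0.28 for all receptor genes, 0.40 for granule cell subunits and 0.50 for granule cell markers, and near 0 for all probe sets.

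Partner genes of the receptors were read from 5 lists, and none of their genes passed limma over all probe sets. Slc17a7, Cbln1, Cbln3, Slc1a3 and Slc1a6 were also counted among the cell type markers, so those lists are not separate observations. Among postsynaptic scaffold genes 14 of 18 lay above 0, with a median of 0.23, against 10 of 18 and a median of 0.03 without clothianidin replicate 6. Of the 18, 2 had an unadjusted limma p under 0.05, both higher with clothianidin, where 2.3% of all probe sets qualified. Shank2, a scaffold of the excitatory synapse, read 12.25 and 11.62 with clothianidin and 10.60 and 11.05 with vehicle. Its relative Shank1 read 14.47 and 14.02 with clothianidin and 13.47 and 13.65 with vehicle. The log2 differences were 1.11 for Shank2 and 0.685 for Shank1, each without overlap, and 0.795 and 0.46 without clothianidin replicate 6. Clothianidin replicate 6 was the highest array for 12 of the 18 scaffold genes, against 26.2% of all probe sets and 35.3% of the brighter ones.

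Glutamate transport genes had 3 of 7 above 0 and a median of -0.06. Slc17a6, the vesicular glutamate transporter of brainstem and midbrain neurons, read 8.02 and 8.13 with clothianidin and 9.57 and 8.62 with vehicle. Like Grm5 it was highest on vehicle replicate 7, and the difference of -1.02 was -0.545 without that array. Slc1a1, a neuronal glutamate uptake transporter, had a difference of -0.565, which was -0.075 without vehicle replicate 7. Other receptor auxiliary proteins had 8 of 13 above 0 and a median of 0.07, with 0.54 for the AMPA receptor protein Shisa6 and -0.80 for the cornichon gene Cnih3, which was -0.145 without vehicle replicate 7. Synaptic organisers had 5 of 13 above 0 and a median of -0.155, with -0.78 for the cerebellin gene Cbln2 (-0.305 without vehicle replicate 7) and 0.645 for the neuroligin gene Nlgn2 (0.21 without clothianidin replicate 6). Genes of metabotropic receptor signalling had 5 of 8 above 0 and a median of 0.12, but 2 of 8 and a median of -0.03 without clothianidin replicate 6, and a median of -0.0013 after quantile normalization. The difference was -0.56 for the G protein gene Gna11 (-0.305 without vehicle replicate 7) and 0.695 for the phospholipase gene Plcb3 (0.215 without clothianidin replicate 6). With 1 array left out in turn the median ran from -0.38 to 0.045 for glutamate transport, -0.125 to 0.21 for the other auxiliary proteins and -0.28 to 0.085 for synaptic organisers.

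**Figure D4:**
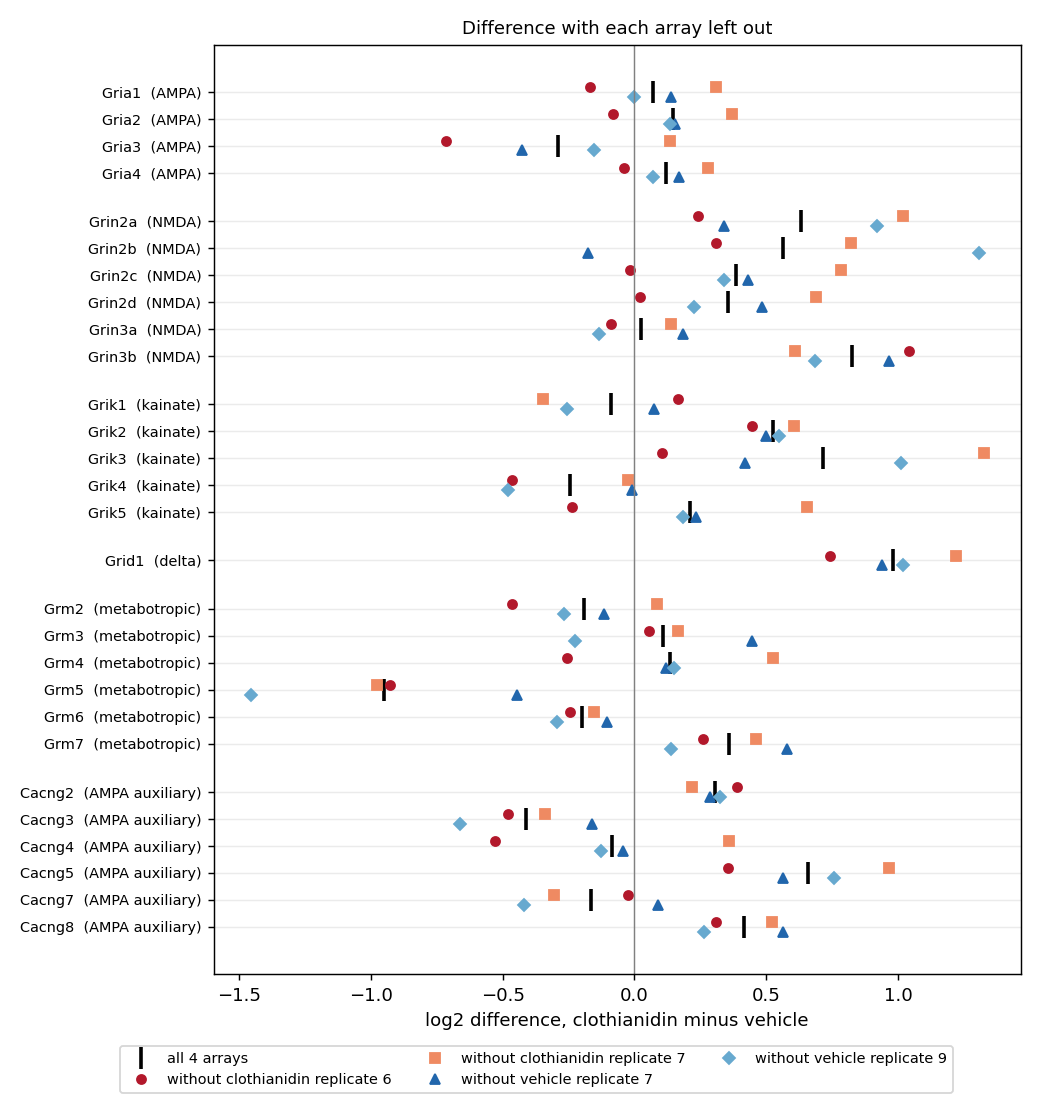
Log2 difference between clothianidin and vehicle (x axis) for each of the 28 genes (y axis) with all 4 arrays (black bar) and with each array left out (symbols). For 14 genes a symbol lies on the other side of 0 from the bar, while Grid1, Grin3b, Grik2 and Cacng2 keep all their symbols above 0.

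Leaving out 1 array turned the sign of the difference for 14 of the 28 genes. The other 14 kept it. They include the 10 genes whose groups do not overlap, where leaving out 1 array cannot turn the sign, so this adds nothing to that count. The groups of Grin2a, Grin2d, Grik3 and Grik4 overlapped. Grin2d was at 0.02 without clothianidin replicate 6, and Grik4 at -0.01 without vehicle replicate 7 and -0.025 without clothianidin replicate 7. With 2 arrays a group the 95% interval of a difference was wide, so that the interval for Grik2 runs from near 0 to more than a doubling, and a p above the threshold does not show that a gene was alike in both groups.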

How the data were processed

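Per the labels' protocols, total RNA from cerebellum was amplified and labelled with GeneChip kits for whole transcripts, and each sample has an array of its own. The authors deposited log2 values, for which the submitters' processing notes name RMA; its version and the annotation build are not given in the sources used here. Base 2 was taken as RMA's usual scale. Signal over background is unknown, and the number of arrays limits the precision.

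Probe sets were named from a platform annotation table that can be old. Of 22206 probe sets 19572 had 1 gene symbol, and 2634 had no named gene in the table. Symbols of the measured receptor genes were the current RefSeq ones for 28 of 28. Each had 1 probe set, so the choice of the one with the highest mean did not arise.

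Groups were compared with limma 3.58.1 (R 4.3.3; lmFit and eBayes) over all 22206 probe sets, with Benjamini-Hochberg adjustment at 0.05. The fit had 2 residual degrees of freedom and 5.96 prior ones, with a prior SD of 0.306. It was tested on simulated data. A second description counted probe sets without overlap between groups and a difference of 1.5-fold or more. Alternatives were centring, quantile normalization, a filter on level, 1 probe set or a mean per gene, other priors and leaving out each array. The receptor genes and all gene lists were chosen with earlier results of these data known. Every receptor gene was named. Standard errors and p-values were printed for those past 1.5-fold without overlap, those with unadjusted p under 0.05, and subunits listed for granule or Purkinje cells. In each list of partner genes the pair with the smallest p was named.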

Additional observations from a re-analysis of the deposited data

How the results depend on the processing

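No receptor gene passed limma's adjusted threshold under any alternative run. The filter on level left out Grid1, Grin3b, Grm5 and Grin2b, so these genes were not tested in that run. Over all probe sets the count of calls was 8 in a linear model without moderation, 0 to 1 when 1 array was left out, and 0 under centring, quantile normalization, the filter on level, 1 probe set per gene and a trended prior. Fits with 1 array left out take a lone array to vary like the other group. The count of probe sets at least 1.5-fold apart without overlap uses the values and no fit. It was 2922 to 4120 with 1 array left out, with 2 to 11 receptor genes, where all arrays gave 1689 and 4. Lack of overlap is easier to meet with 1 array against 2 than with 2 against 2. The counts with 1 array left out therefore cannot be set against those with all arrays. The median difference of the receptor genes ran from -0.02 without clothianidin replicate 6 to 0.365 without clothianidin replicate 7. Quantile normalization put Gria1 at -0.0075, Grin3a at -0.015, Gria4 at 0.0025, Grm3 at 0.025 and Gria2 at 0.065, and the median of the granule cell subunits at 0.16. With 1 array left out the difference ran from -0.17 to 0.31 for Gria1, -0.08 to 0.37 for Gria2, -0.715 to 0.135 for Gria3, -0.04 to 0.28 for Gria4, -0.175 to 1.305 for Grin2b, -0.015 to 0.785 for Grin2c, -0.135 to 0.185 for Grin3a, -0.345 to 0.165 for Grik1, -0.235 to 0.655 for Grik5, -0.465 to 0.085 for Grm2, -0.225 to 0.445 for Grm3, -0.255 to 0.525 for Grm4, -0.53 to 0.36 for Cacng4 and -0.42 to 0.09 for Cacng7. The cause was not tested. The counts on array order and on differences above 0 were checked by alternatives chosen after seeing the data. No paired analysis was possible because the groups share only the replicate number 7.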

Other observations

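Some auxiliary subunit genes are neighbours in the genome. Cacng5 and Cacng4 lie beside each other on chromosome 11, with no protein-coding gene between them in the RefSeq table, and had log2 differences of 0.66 and -0.085. Cacng8 and Cacng7 lie beside each other on chromosome 7 and had 0.415 and -0.165. Without clothianidin replicate 7 Cacng5 and Cacng4 were at 0.965 and 0.36, and without vehicle replicate 7 Cacng8 and Cacng7 were at 0.565 and 0.09. Neither contrast between neighbours was tested.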
